A study of Mus musculus with 8 samples.

Results

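Transcripts of 9 genes of the phospholipase A2 family were followed in spinal cord astrocytes with and without the potassium channel Kir4.1. The genes encode the secreted enzymes Pla2g5, Pla2g2d, Pla2g3 and Pla2g12a, the intracellular enzymes Pla2g4a, Pla2g6 and Pla2g15, the platelet-activating factor (PAF) hydrolase Pla2g7 and the receptor Pla2r1, out of 39179 genes with counts. They were chosen by name as a family around Pla2g5, which had been noticed because its RNA differed between the genotypes. All differences between genotypes for these 9 genes are therefore given as a description. The series holds 8 RNA-seq libraries of cells sorted by flow cytometry for the Aldh1l1-GFP reporter from dissociated spinal cord, from mice of a mixed Swiss-Webster background at postnatal day 12 to 14. Every animal carried the reporter. The 4 control libraries, control S1, S2, S6, S7, are labelled wild-type and came from cre-negative animals, and whether those animals carried floxed alleles is not stated. The 4 conditional knockout (cKO) libraries, cKO S3, S4, S5, S8, came from animals with both Kir4.1 alleles floxed and the Aldh1l1-cre transgene, which drives recombination from regulatory elements of the same gene that the GFP reporter marks. The series calls the libraries biological replicates, and whether each stands for 1 animal or a pool is not stated. Where 4 values of a group are listed, they stand in these orders.

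Phospholipases A2 cut the middle fatty acid from membrane phospholipids and so release free fatty acids, among them arachidonic acid, together with lysophospholipids. Arachidonic acid is the starting material of prostaglandins and leukotrienes, and lysophospholipids are signals in their own right or are rebuilt into membranes. Small secreted members need calcium and act outside the cell or on its surface, cytosolic Pla2g4a is recruited to membranes by calcium, Pla2g6 works without calcium, and Pla2g7 removes the short chain from PAF, a lipid mediator of inflammation.

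Gene reads per library ranged from 13892736 to 25065686. Values below are CPM, counts scaled to a common library total. Kcnj10, which encodes Kir4.1, was at 1181 to 2306 CPM in the controls and at 27.2 to 37.6 CPM in the cKO libraries, so no label was contradicted. The sorted cells carried all 9 astrocyte markers examined, with a summed level of 15728 to 22943 CPM in controls and 18307 to 22787 CPM in cKO. Oligodendrocyte markers summed to 992 to 2934 CPM over the 8 libraries and those of oligodendrocyte precursors to 626 to 1616 CPM. Microglial markers summed to 28.4 to 69.8 CPM. These are bulk samples, in which more cells of a type and more RNA per cell cannot be told apart.

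Pla2g5, a secreted enzyme that hydrolyses phosphatidylcholine and binds heparan sulfate on cell surfaces, was close to the limit of detection in controls and clearly present in every cKO library. It had 8, 3, 5 and 5 reads in the controls, against 138, 274, 193 and 82 reads in cKO. In CPM these were 0.507, 0.218, 0.275 and 0.237 in the controls and 7.05, 12.4, 11 and 3.51 in the cKO libraries. All 4 cKO libraries lay above all 4 controls, and the lowest of them, cKO S8, was 6.92-fold above the highest control. The group means were 0.309 CPM ± 0.134 (SD, n = 4) and 8.50 CPM ± 4.03 (SD, n = 4), a ratio of 27.5 that rests on 21 control reads in all. The cKO libraries differed among themselves by 3.54-fold, with S4 and S5 high and S8 low. In edgeR's quasi-likelihood fit the log2 fold change came to 4.76 (standard error, SE, 0.60). Its adjusted p from that fit was 0.00764, given only as a description because the gene was chosen for this same contrast. The call was lost without cKO S4, where the log2 fold change was 4.51 and edgeR's adjusted p 0.0618 (and 4 genes of all those tested were called, against 47 with all libraries), and with limma-voom, which gave 4.55 and an adjusted p of 0.149.

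Pla2g5 occupies bases 138799244 to 138863482 of chromosome 4 (GRCm38, minus strand), where the annotation gives it 9 transcripts. RefSeq lists a pair of start sites for it, 44212 bases apart, and the counts per gene do not tell which one was used. Both promoters are shown because this gene had the widest difference of the family, and the promoter of Pla2g7 is shown beside them because its RNA was also higher in every cKO library. Each runs from 250 bases before the start site to 50 after it, 5′ to 3′ along the gene, from RefSeq on GRCm38.p6, and capitals mark matches to the motifs named below and, in the first, the copies of a short repeat.
Pla2g5 upstream start (chr4:138863420-138863719, minus strand): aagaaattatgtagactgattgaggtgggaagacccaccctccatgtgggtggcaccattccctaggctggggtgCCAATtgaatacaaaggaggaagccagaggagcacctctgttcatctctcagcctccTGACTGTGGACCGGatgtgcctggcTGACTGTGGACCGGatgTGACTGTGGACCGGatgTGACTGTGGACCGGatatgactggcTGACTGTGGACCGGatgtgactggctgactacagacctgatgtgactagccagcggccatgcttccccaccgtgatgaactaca
Pla2g5 downstream start (chr4:138819208-138819507, minus strand): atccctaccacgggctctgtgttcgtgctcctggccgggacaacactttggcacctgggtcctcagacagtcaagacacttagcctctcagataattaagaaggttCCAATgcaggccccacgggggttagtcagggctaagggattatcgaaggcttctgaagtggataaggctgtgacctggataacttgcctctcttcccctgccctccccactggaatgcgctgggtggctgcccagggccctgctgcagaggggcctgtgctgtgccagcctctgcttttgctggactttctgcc
Pla2g7 (chr17:43568201-43568500, plus strand): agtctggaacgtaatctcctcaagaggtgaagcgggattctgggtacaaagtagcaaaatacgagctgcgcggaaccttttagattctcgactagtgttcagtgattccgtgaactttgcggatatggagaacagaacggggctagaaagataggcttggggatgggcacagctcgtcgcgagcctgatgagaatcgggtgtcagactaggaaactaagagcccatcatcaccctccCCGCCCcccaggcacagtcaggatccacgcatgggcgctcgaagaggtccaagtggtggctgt
The upstream Pla2g5 promoter holds 5 copies of the 14-base run TGACTGTGGACCGG between its bases 133 and 230. A 14-base run repeated as often was found in 1.99% of 32851 RefSeq promoters of the same length. Each Pla2g5 promoter holds 1 CCAAT, a motif present on either strand in 37.4% of those promoters. Neither holds TATAAA (13.6% of promoters), GGGCGG (35.7%), the AP-1 motif TGANTCA (7.81%) or the cyclic AMP response element TGACGTCA (1.79%). The Pla2g7 promoter holds a single GGGCGG, on the opposite strand. Both strands were searched for every motif, no matches overlapped in these 3 windows, and a match describes letters only.

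The other genes of secreted phospholipases beside Pla2g5 on chromosome 4 were silent or nearly so. Pla2g2d, a secreted enzyme known from lymphoid tissue, ends 17197 bases from Pla2g5 and had 3 to 15 reads per library. It was at 0.317, 0.655, 0.439 and 0.237 CPM in the controls and 0.460, 0.680, 0.171 and 0.385 CPM in cKO, and the groups overlapped throughout. Pla2g2a, Pla2g2e and Pla2g2f had 0 reads in all 8 libraries, where 3 counts, the limit that a count of 0 allows, equal 0.128 to 0.218 CPM per library. Pla2g2a is annotated as a polymorphic pseudogene. Pla2g2c had 3 reads in total, 1 in control S1 and 1 each in cKO S3 and S8. Of 14 other counted genes starting within 250 kb of the Pla2g5 start, 6 passed the filter on low counts and 0 had an adjusted p under 0.05 in edgeR's test (0.318% of all tested genes had), while 2 had an unadjusted p under 0.05 (9.81% of all tested genes). All 6 had a log2 fold change above 0, from 0.31 to 1.85, where 48.4% of all tested genes had. The libraries of 2 of the 6, Ubxn10 and Nbl1, did not overlap between groups (3.39% of all tested genes were higher in this way), with lowest cKO values of 3.51 and 3.54 CPM against highest control values of 3.42 CPM each. Pla2g5 shares no exonic base with another annotated gene. Pla2g2a and the small nuclear RNA gene Gm25280 lie within its introns, both at 0 reads.

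**Figure D1:**
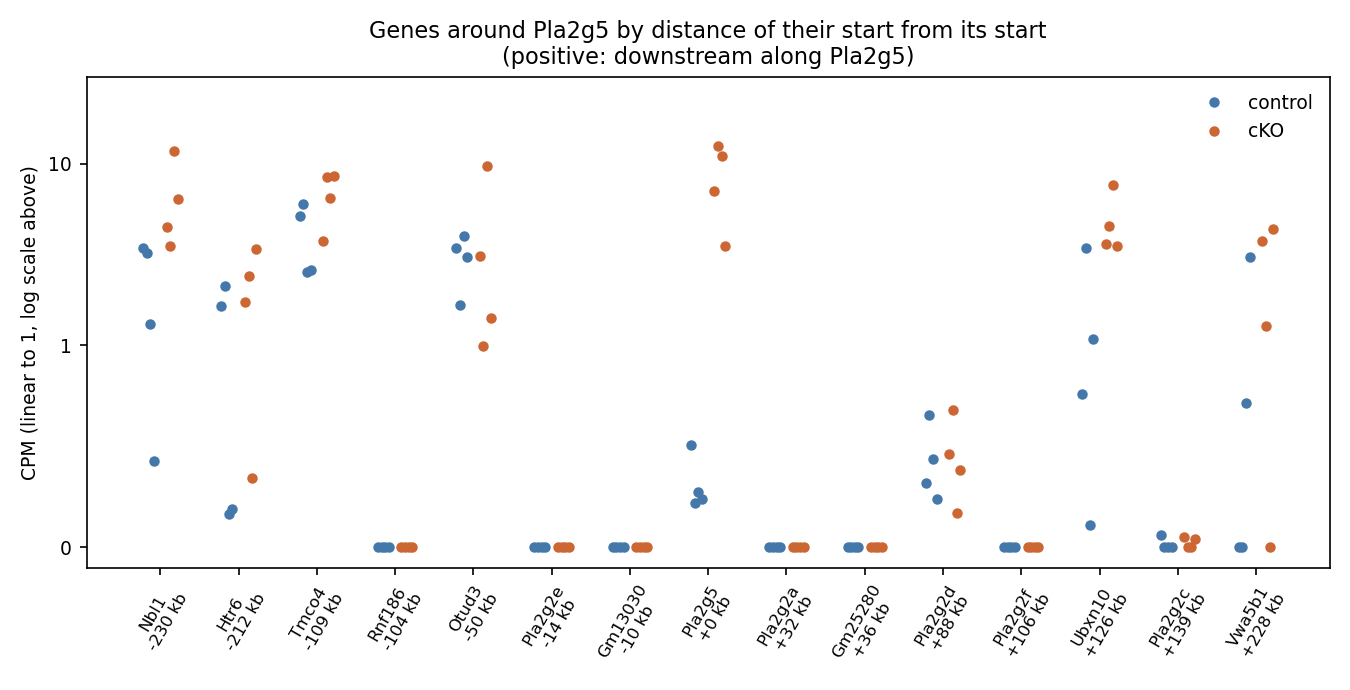
CPM of the genes that start within 250 kb of the Pla2g5 start, in order of their position along Pla2g5's strand (spacing not to scale), 1 point per library, controls in blue and cKO in orange, on an axis that is linear to 1 and logarithmic above. Pla2g5 stands at 0.218 to 0.507 CPM in controls and 3.51 to 12.4 CPM in cKO, while Pla2g2a, Pla2g2e and Pla2g2f are at 0 in every library.

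Pla2g3, a secreted enzyme related to that of bee venom, was lower on average in cKO, with controls that fell apart among themselves. It was at 7.23, 6.48, 25.4 and 19.3 CPM in controls, and cKO libraries held 4.39, 6.80, 2.74 and 3.64 CPM. Control S6 and S7 were high, whereas control S2 lay below cKO S4, so the groups overlapped. The log2 fold change was −1.73 (SE 0.48), and edgeR's adjusted p was 0.205. Summed markers of oligodendrocyte precursors were also highest in control S6 and S7, at 1024 and 1616 CPM, against 626 to 851 CPM in the other 6 libraries. Gpr17 alone gave 477 and 751 CPM in control S6 and S7, against 132 to 343 CPM elsewhere. Pdgfra, Neu4, Bmp4 and Sox10 were also highest in control S6 and S7. Cspg4, Olig1 and Olig2 were not high in control S6, where Olig2 had its lowest value of all libraries, 80.8 CPM. The list holds 8 markers, of which Pdgfra also marks fibroblasts and Cspg4 mural cells, and its part in the level of Pla2g3 was not tested. Pla2g3 (chromosome 11, 3488284 to 3499350, plus strand) also shares 401 exonic bases with Inpp5j on the opposite strand, which had 39 to 76 reads in controls and 0 to 55 in cKO. Strand use in the counting is not stated, so reads in the shared stretch cannot be assigned.

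Pla2g12a, a widely expressed secreted member with weak enzymatic activity, was at 10.3, 7.35, 6.26 and 6.39 CPM in the controls. In cKO it was at 6.18, 10.1, 3.19 and 2.78 CPM. The groups overlapped, since cKO S4 lay above 3 of the controls, and the log2 fold change was −0.44 (SE 0.45). It was −0.90 without cKO S4, and −0.22, −0.25 and −0.26 without cKO S8, cKO S5 and control S1. Pla2r1, a large lectin-type receptor that binds secreted phospholipases A2, had 0, 9, 1 and 0 reads in the controls and 8, 10, 0 and 1 reads in cKO. Nearly all of its reads came from control S2, cKO S3 and cKO S4. Pla2g2d and Pla2r1 did not pass the filter on low counts.

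**Figure D2:**
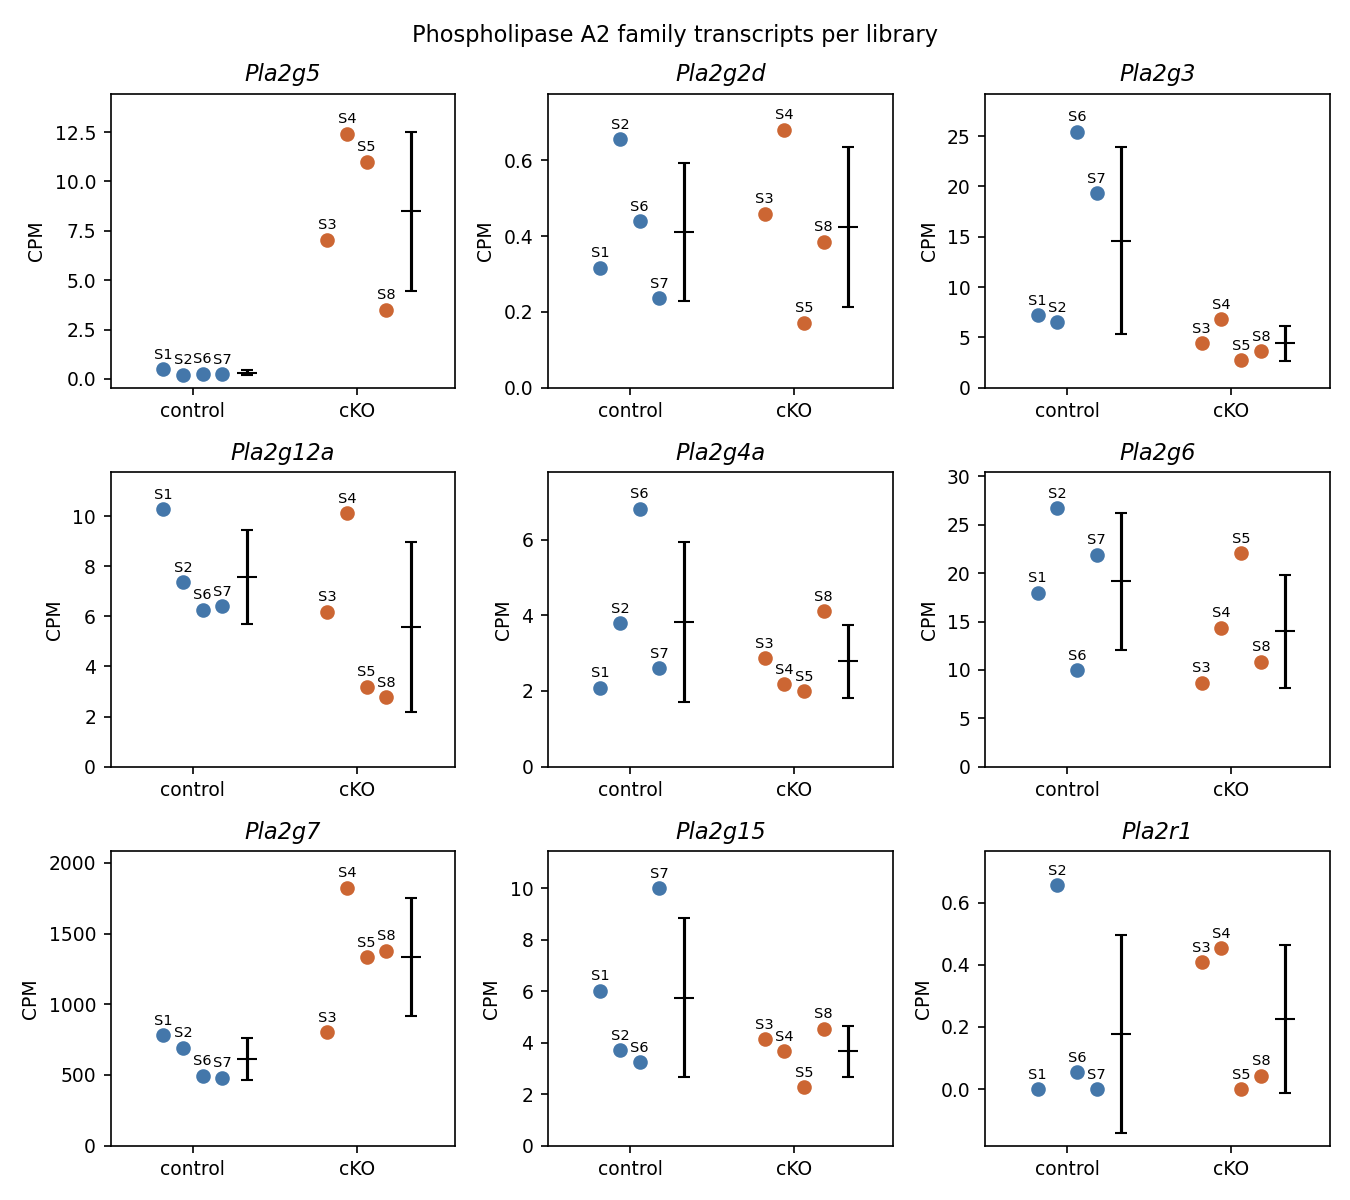
CPM of the 9 family members in each library, controls in blue and cKO in orange, each panel with its own linear axis, with black bars for the group mean ± SD (n = 4). Pla2g5 and Pla2g7 are the members whose cKO libraries all lie above all controls, from 3.51 CPM for Pla2g5 and from 802 CPM for Pla2g7.

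Pla2g7 was by far the most abundant member in both genotypes. Its product, the lipoprotein-associated PAF acetylhydrolase, is secreted and inactivates PAF and oxidised phospholipids. It was at 783, 694, 496 and 482 CPM in the controls, and its cKO values were 802, 1823, 1334 and 1378 CPM. By CPM it ranked between 72 and 104 among all genes in the controls and between 27 and 52 in the cKO libraries. Every cKO library was above every control, but cKO S3 exceeded control S1 by little. The means were 613 CPM ± 149 (SD, n = 4) and 1334 CPM ± 418 (SD, n = 4), 2.17-fold apart, with a log2 fold change of 1.12 (SE 0.24). Its adjusted p was 0.0856 in the edgeR fit and 0.00235 in the authors' deposited table, which comes from DESeq2. Among controls, Pla2g7 was higher in S1 and S2 than in S6 and S7. Summed astrocyte markers were also higher in S1 and S2, at 22943 and 21243 CPM against 15813 and 15728 CPM. Slc1a2 alone gave 11936 and 11729 CPM in S1 and S2, and 8999 and 7762 CPM in S6 and S7. Gja1, Aldoc, Glul and Sox9 were higher in S1 and S2 too. Gfap and Slc1a3 were lower there, and Aldh1l1 and Aqp4 did not split the controls this way. The summed astrocyte markers overlapped between genotypes, from 18307 CPM in cKO S3 to 22787 CPM in cKO S4. In edgeR's test 2 of the 9 markers passed, where 0.318% of all tested genes passed and 0.203% passed as higher. They were Aldh1l1 (log2 fold change 1.01, edgeR's adjusted p 0.0179) and Aqp4 (1.09, 0.0243), both higher in cKO. The cre transgene, absent from controls, uses regulatory elements of Aldh1l1, and its part in that level was not tested. The 10 microglial markers summed to 28.4 to 52.5 CPM in controls and 35.2 to 69.8 CPM in cKO. The part of either list in the level of Pla2g7 was not tested. Pla2g7 (chromosome 17, 43568098 to 43612201, plus strand) shares 319 exonic bases with the antisense gene 1700071M16Rik. That gene had 254 to 354 reads in controls and 488 to 794 in cKO, against 9022 to 40189 reads of Pla2g7.

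The cytosolic and lysosomal enzymes did not separate the genotypes. Pla2g4a, the calcium-dependent enzyme with a preference for arachidonic acid, was at 2.09, 3.79, 6.81 and 2.61 CPM in the controls and 2.86, 2.18, 1.99 and 4.11 CPM in cKO. Control S6 was the highest library, and it also held the highest summed fibroblast markers, 667 CPM against 100.1 to 262 CPM elsewhere; their part in the level of Pla2g4a was not tested. Pla2g4a had a log2 fold change of −0.46 (SE 0.54), and its sign turned with the authors' FPKM values (0.025 and 0.034 with pseudocounts of 0.1 and 1). Without control S6 the log2 fold change of Pla2g4a was −0.019, and without cKO S8 it was −0.70. Pla2g6, the calcium-independent enzyme mutated in infantile neuroaxonal dystrophy, was at 18, 26.7, 9.997 and 21.9 CPM in the controls and at 8.68, 14.4, 22.1 and 10.8 CPM in the cKO libraries. Its log2 fold change was −0.45 (SE 0.36), and it was −0.25 and −0.28 without control S2 and cKO S3 and −0.76 without cKO S5. Pla2g15, a lysosomal enzyme that also transfers acyl groups, was at 6.02, 3.71, 3.24 and 9.995 CPM in the controls and at 4.14, 3.67, 2.28 and 4.54 CPM in the cKO libraries. Its log2 fold change was −0.65 (SE 0.48), and −0.23 without control S7. For each of these 3 enzymes the SD of the controls exceeded the distance between the group means.

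Of the 9 members, 7 passed the filter, Pla2g5 only through its cKO libraries, and 1 of the 7 (Pla2g5) had an adjusted p under 0.05 in edgeR's test, where the share among all 14757 tested genes was 0.318% (0.203% higher and 0.115% lower in cKO). Libraries did not overlap in 2 of the 7, both higher in cKO, where 3.39% of all tested genes lay higher in all cKO libraries and 2.94% lower. The authors' deposited table listed 3 members under 0.05 (Pla2g5, Pla2g7 and Pla2g3) among the 7 with an adjusted p, where the share over its genes was 2.87%. DESeq2 run on the counts called the same 3 members, against 2.49% of all genes. The log2 fold changes in the authors' deposited table were 2.99 for Pla2g5, 0.996 for Pla2g7 and −1.22 for Pla2g3. They are smaller in size than that table's own group means imply, which for Pla2g5 were 5.68 and 156 scaled counts. DESeq2 run on the counts gave 4.79, 1.12 and −1.74 in the same order. The deposited log2 fold changes are therefore not on the scale of those from edgeR. Of the 7, 2 had a positive and 5 a negative log2 fold change from edgeR, and their median was −0.45, against −0.017 over all tested genes. The contrast was used to choose the family, so nothing is read from these counts.

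**Figure D3:**
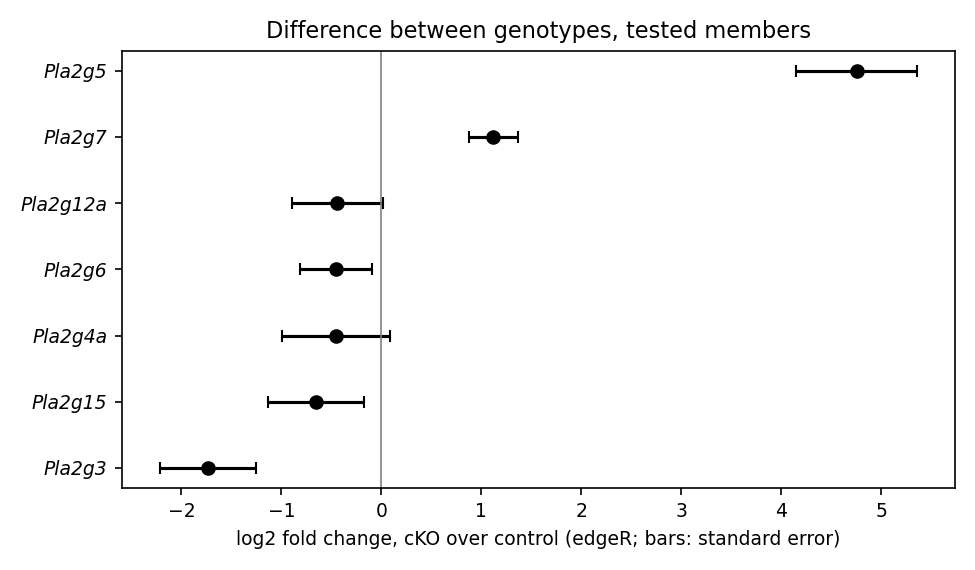
Log2 fold change of the 7 tested members, cKO over control, from the edgeR fit to all genes, with bars for 1 standard error. Pla2g5 stands at 4.76 and Pla2g7 at 1.12, and the other 5 members lie between −1.73 and −0.44.

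Levels of different members were compared per transcript length, with the FPKM that the authors deposited. In controls the order of mean FPKM was Pla2g7 (526), Pla2g6 (12.03), Pla2g12a (7.46), Pla2g3 (6.37), Pla2g15 (2.73), Pla2g4a (1.63), Pla2g5 (0.764), Pla2r1 (0.393) and Pla2g2d (0.257). Only the step from Pla2g7 to Pla2g6 was free of overlap between the ranges of neighbours, and all other neighbours in this order overlapped. Pla2g7 made up 94.3% of the summed FPKM of the 9 members in controls and 96.9% in cKO. In cKO, Pla2g5 moved from the seventh place to the second, at a mean of 19.3 FPKM (range 9.10 to 30.1), ahead of Pla2g6 at 6.96 FPKM (5.72 to 9.14), and their ranges overlapped only at the ends. By FPKM the libraries of Pla2g3 did not overlap between genotypes (3.31 to 10.3 and 1.37 to 2.86), while those of Pla2g7 did (372 to 704 and 701 to 1418), the reverse of the CPM. Counts per kilobase of exon sequence also placed Pla2g5 second in cKO, at 2.95 CPM per kilobase (range 1.22 to 4.31), but that range contained the whole range of Pla2g6 (mean 2.57, 1.598 to 4.06). By that measure Pla2g5 was in eighth place in controls.

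**Figure D4:**
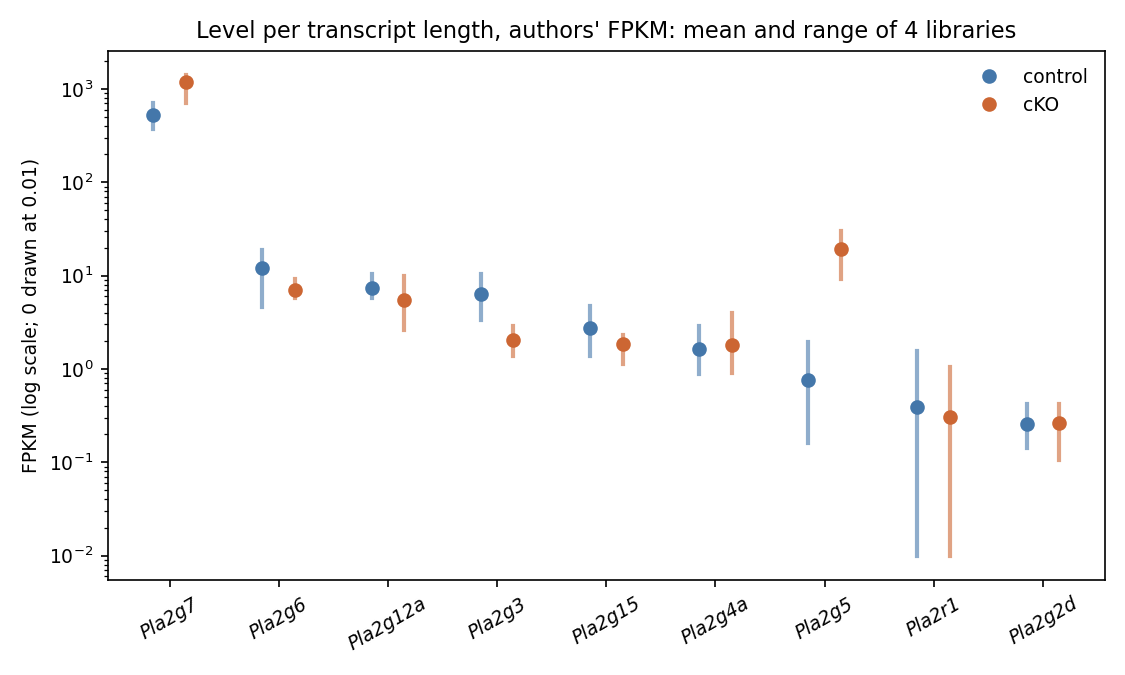
Authors' FPKM of the 9 members on a log axis, ordered by the control mean, with points for the mean and lines for the range over 4 libraries of each genotype (0 is drawn at 0.01). Pla2g7 lies near 526 and 1173 FPKM, far above all others, and the ranges of the genotypes are separate for Pla2g5 and Pla2g3.

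The genes whose pattern over the 8 libraries was most like that of Pla2g5, by Pearson's r of log2 CPM among 12024 named protein-coding genes, were Slc38a1 (r = 0.980), Cd44 (0.976), Prelp (0.972), Cmklr1 (0.969) and Tlr4 (0.966). They encode a glutamine transporter, a hyaluronan receptor, a small leucine-rich proteoglycan, the chemerin receptor and a receptor for bacterial lipopolysaccharide. All 5 were, like Pla2g5, higher in every cKO library than in any control, where 3.39% of all tested genes were. The r over all libraries includes that difference, and picking genes by r with Pla2g5 favours genes that show it. Their separation is therefore no separate result. Of the 5, Tlr4 alone did not pass edgeR's test (adjusted p 0.250). With each genotype centred on its own mean, r was 0.71, 0.69, 0.84, 0.57 and 0.72 in the same order. The 5 genes were picked by r over these same libraries, so the centred values are no independent support. Control reads were also few, 3 to 8 per library for Pla2g5 and 1 to 8 for Tlr4. Among the other tested members, r with Pla2g5 over all libraries was 0.847 for Pla2g7 and between −0.71 and −0.30 for the other 5. After centring it ran from −0.61 for Pla2g4a to 0.62 for Pla2g12a, with Pla2g7 at 0.33.

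The genes that act before, after or beside the phospholipases were read from 9 lists, with 88 of 133 listed genes tested. In edgeR's test 1 passed an adjusted p of 0.05, Ephx1, and it was higher in cKO, where 0.318% of all tested genes passed and 0.203% passed as higher. Their median log2 fold change was −0.00035, against −0.017 over all tested genes, and libraries did not overlap between groups in 10 (11.4%), against 6.34% of all tested genes. Ephx1, microsomal epoxide hydrolase, which opens lipid epoxides and drug epoxides, was at 43.5, 48.3, 24.2 and 15.6 CPM in the controls and 76.5, 126, 195 and 94.1 CPM in cKO. All cKO libraries were above all controls, and the log2 fold change was 1.91 (SE 0.36) and an adjusted p of 0.0488 from edgeR. Without cKO S3 the lists still held 1 called gene, and without any other single library they held 0. Its cytosolic relative Ephx2 was at 14.6 CPM ± 3.71 and 13.1 CPM ± 2.22 (SD, n = 4 each).

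Among the 15 tested enzymes of eicosanoid synthesis and breakdown, 1 was called higher, the Ephx1 already counted above, and 0 lower. Of all tested genes, 0.203% were called higher and 0.115% lower. The median log2 fold change of these enzymes was 0.31, against −0.017 over all tested genes. Hpgd, which inactivates prostaglandins and was among the most abundant of them, was at 34.7 to 50.9 CPM in controls and 57.3 to 79.6 CPM in cKO, without overlap and with an adjusted p of 0.156 from edgeR. Ptgds and Ptgs1, chosen after their values were seen, had higher means in cKO without passing edgeR's test. Ptgds, a prostaglandin D synthase, was at 4.12, 1.16, 2.86 and 0.047 CPM in the controls and 27.8, 17.6, 5.59 and 9.84 CPM in cKO (adjusted p 0.205 from edgeR). Ptgs1, the constitutive cyclooxygenase, was at 10.4 to 55.5 CPM in controls and 36.5 to 98.3 CPM in cKO, and cKO S5 lay within the control range. Ptgs2, the inducible cyclooxygenase, had at most 1.141 CPM in a library and 0 reads in 6 of 8. Of 15 genes for eicosanoid receptors and transporters, 3 were tested and 0 called, among them the prostaglandin E receptor Ptger1 (8.11 CPM ± 5.43 and 5.89 CPM ± 2.11) and the exporter Abcc4 (3.82 CPM ± 2.91 and 10.8 CPM ± 2.52, SD, n = 4 each).

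No other tested member of the family and no PAF gene passed edgeR's test. Of 18 other phospholipase A2 genes 4 were tested and 0 called, where 0.318% of all tested genes were called. Nothing is read from a count of 0 in lists this short. Prdx6, a peroxiredoxin with phospholipase activity, was at 244 CPM ± 55.5 and 272 CPM ± 33.97, and Pla2g16, also called Plaat3, an acyltransferase with phospholipase activity, at 38.0 CPM ± 14.7 and 41.4 CPM ± 7.76 (SD, n = 4 each). Proca1, which carries a phospholipase A2-like domain and was chosen after its values were seen, was at 14.99 to 19.1 CPM in controls and 1.13 to 6.81 CPM in cKO, with an adjusted p of 0.118 from edgeR. Of the 7 PAF genes, all tested, 0 were called and the median log2 fold change was −0.45, against −0.017 over all tested genes. Pafah1b1 and Pafah1b2, subunits of the intracellular PAF hydrolase, had log2 fold changes of −0.22 and −0.17. Ptafr, the PAF receptor, was at 1.22 CPM ± 1.01 in controls and 0.888 CPM ± 0.342 in cKO (SD, n = 4 each).

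Of the 12 tested enzymes that activate fatty acids or put them back on lysophospholipids 0 were called (median log2 fold change −0.16). Over all tested genes 0.318% were called and the median was −0.017, which also holds beside the lists that follow. Nothing is read from a count of 0 in lists this short. Their mean levels over all libraries ran from 2.12 CPM for Mboat1 to 819.5 CPM for Acsl3. Acsl3 and Acsl6, which activate fatty acids, were at 901 CPM ± 270.4 and 485 CPM ± 133 in controls and at 738 CPM ± 102 and 574 CPM ± 99.1 in cKO (SD, n = 4 each). Of 10 tested lysophospholipid genes 0 were called (median 0.28), with log2 fold changes of −0.24 for Gpcpd1 and −0.052 for Enpp2, which makes lysophosphatidic acid. Of 8 tested genes of monoacylglycerol and endocannabinoid turnover 0 were called (median −0.19), with Dagla at −0.23 and Abhd12 at −0.0052. Of 18 tested phospholipases of other classes 0 were called (median 0.10), with Ddhd1 at −0.16 and Plce1 at 0.45. Of 11 tested partners of the phospholipases 0 were called (median 0.16). The abundant ones were Anxa5 at a log2 fold change of 0.16 and Vcan at −0.94, the latter highest in control S6 and S7 (288 and 412 CPM). S100a10, a member of the S100 family that binds Anxa2 and Pla2g4a and was chosen after its values were seen, was at 5.78 to 10.6 CPM in controls and 15.2 to 25.4 CPM in cKO, with an adjusted p of 0.0961 from edgeR.

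**Figure D5:**
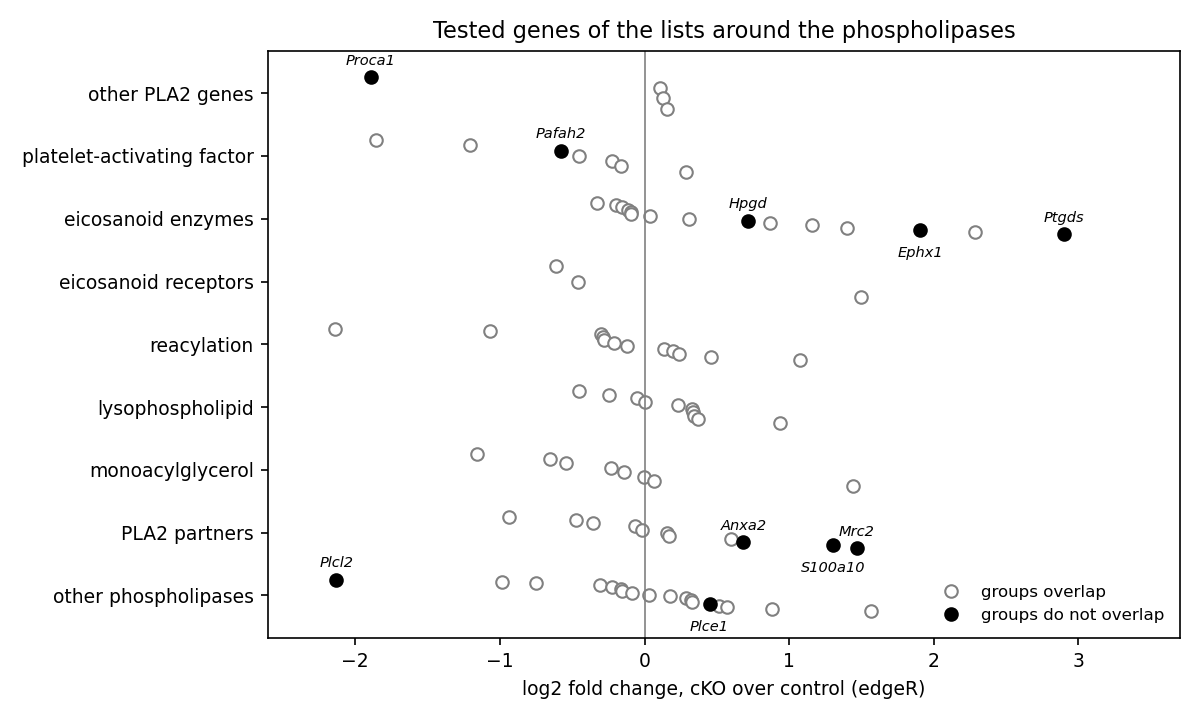
Log2 fold change, cKO over control, of the tested genes in 9 lists of related function, 1 point per gene (vertical offsets only separate points), filled in black and named where the libraries of the groups do not overlap. Of 88 genes 10 do not overlap, and Ephx1 at 1.91 is the gene past an adjusted p of 0.05 in the edgeR fit.

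Secreted phospholipases A2 are also known from immune and vascular cells, and markers of those cells are given here beside Pla2g5. The 6 markers of perivascular macrophages summed to 12.1 to 16.8 CPM in controls and 16.4 to 27.0 CPM in cKO, highest in cKO S5. The other 5 of them had reads in every cKO library and higher means in cKO, while Cd209f had 15 reads in control S2 and 0 elsewhere. Microglial markers, given above, were highest in cKO S3. Lymphoid and dendritic markers summed to 9.32 to 19.0 CPM in controls and 8.21 to 17.3 CPM in cKO. Among them Cd3e, Cd79a and Ms4a1 had 0 reads in every library, while Flt3 (3.36 to 7.53 CPM) and Zbtb46 (4.31 to 13.9 CPM) had reads in all 8. Of 6 neutrophil and mast cell markers, S100a8, S100a9, Ly6g, Cpa3 and Mcpt4 had 0 reads in every library, while Kit had 45, 5, 37 and 83 reads in the controls and 44, 95, 0 and 5 in cKO. The 9 endothelial markers summed to 41.1 to 71.8 CPM in controls and 23.1 to 55.7 CPM in cKO. Of these markers, those that passed the filter on low counts had no adjusted p under 0.05 in edgeR's test. The share over all tested genes was 0.318%. Among lymphoid, dendritic, neutrophil and mast cell markers only Flt3, Zbtb46 and Kit passed that filter. Pf4, Cd209f and the microglial Aif1 did not pass it either, so the test says nothing on the markers left out. The part of these cell types in the level of Pla2g5 was not tested.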

How the data were processed

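RNA was measured in 8 libraries, 4 per genotype, grouped by sample title. Per the submitters' processing notes the tools were FastQC 0.11.4, TopHat2 2.0.11, Bowtie2 2.2.3, HTSeq 0.6.1p1, DESeq2 1.14.1, Cuffnorm and Cufflinks 2.2.1, with GRCm38; annotation and strand setting are not given in the sources used here. The authors deposited raw counts per gene (5 summary lines per table, 56.4% to 61.7% of reads, left out here), FPKM, and a comparison with group means of scaled counts (a signal), log2 fold changes, standard errors and Wald statistics (scores) and p-values, per the file headers. By deviations from each gene's mean over 13791 genes, 3 of 8 FPKM columns matched the count table bearing their name best, and the other 5 matched another library of their genotype, so FPKM served only as group values.

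Counts were fitted with edgeR 4.0.16 in R 4.3.3 (TMM, filterByExpr, quasi-likelihood test, no covariate, Benjamini-Hochberg over 14757 genes, threshold 0.05), and the script was tested on simulated data. The standard error was taken from the F statistic. Alternatives used DESeq2 1.42.0 and limma 3.58.1 and other scalings, filters and libraries. CPM use TMM-adjusted library sizes. Gene models are from GENCODE mouse release 21. Floors cover counting error only. Likeness used log2(CPM + 0.5) and a mean of at least 1 CPM.

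The members and lists were chosen with earlier results of these data known. Named genes were all members, list genes past the threshold (up to 8), the 2 most abundant of each list, and the 5 genes most like Pla2g5; others are marked.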

Additional observations from a re-analysis of the deposited data

Results flagged for a closer look

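Pla2r1 was at 0.655 CPM (9 reads) in control S2, far from the other 3 controls, which were at 0 to 0.055 CPM. It was the only library found to stand apart from its group among 18 groups of 4 values, where about 0.9 are expected by chance.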

How the results depend on the processing

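The log2 fold change of Pla2g5 was positive in every setting tried, and its call was lost with limma-voom (4.55, adjusted p 0.149), with limma on FPKM at pseudocounts of 0.1 (4.79) and 1 (3.51), and without cKO S4; leaving out 1 library at a time gave 4.51 to 5.08. It could not be fitted with a filter of at least 10 counts in every library, which removes it. Pla2g4a turned to 0.025 and 0.034 with FPKM at pseudocounts of 0.1 and 1. Pla2g7 (0.93 to 1.31) passed edgeR's or DESeq2's threshold in 5 settings: DESeq2 (adjusted p 0.00256), filters keeping genes with 1 count in any library (0.0299) or 10 in every library (0.0394), scaling by library totals (0.0344) and without cKO S3 (0.0271). Pla2g3 (−2.03 to −1.19) passed with DESeq2 (0.0201). Of the members 1 was called, against 3 with DESeq2, 2 with the filter of at least 1 count, 2 with library totals, 0 with limma-voom, 0 with FPKM at either pseudocount, and 0 to 2 without single libraries. Over all genes 47 were called, against 384 with DESeq2, 28 with Xist as a covariate, 87 and 84 with the looser and stricter filters, and 4 to 45 without single libraries; library totals split 62 calls into 48 higher and 14 lower, against 30 and 17. Of the list genes 1 was called, against 5 with DESeq2 (Ephx1, Hpgd, S100a10, Proca1 and Plcl2) and 0 to 1 without single libraries. Pla2g7 exceeded the next member 43.7-fold in controls by FPKM, 59.9-fold by counts per kilobase and 35.3-fold to 57.9-fold without single controls. The causes of these changes were not tested. No paired analysis was possible because the groups share no replicate numbers. Depth limits Pla2g2d, Pla2r1 and control Pla2g5, at 15 reads or fewer per library.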
